A study of Mus musculus and Homo sapiens with 67 samples.

Results

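The endothelial genes described here are Pecam1, Plvap, Cdh5, Kdr, Flt1, Tek, Emcn, Eng, Esam and Cldn5, genes known as markers of the cells that line blood vessels. They were taken by gene symbol from the table of mouse KPC tumours grown in the pancreas, and all 10 were found among the 55335 genes listed there. KPC cells are mouse pancreatic cancer cells. RNA-seq was run on 16 tumours, with 4 each from mice given the combination of tazemetostat and RMC-6236, RMC-6236 alone, tazemetostat alone, or vehicle (control). Tazemetostat inhibits EZH2, the histone H3 lysine methyltransferase of the Polycomb complex, and RMC-6236 blocks RAS proteins in their GTP-bound state. All 4 groups share the implanted KPC cells, and the labels give no dose, treatment time, mouse strain, sex or age for them. The same arms in cultured KPC cells, with DMSO as the control and 3 samples per arm, showed how much of each gene the cancer cells themselves expressed. The labels number the samples of an arm but do not say that each is a separate animal or culture, so p-values measure the spread between these samples.

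Endothelial cells form the inner wall of every vessel and hold to each other through junctional proteins such as PECAM1 and VE-cadherin. They grow in response to VEGF, which signals mainly through the receptor encoded by Kdr, while the receptor encoded by Flt1 binds VEGF tightly and signals weakly. Angiopoietins act on the receptor encoded by Tek and govern how stable a vessel is. Pancreatic ductal tumours are known for a sparse vasculature within dense stroma.

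Values are FPKM (fragments scaled by transcript length and by the mapped fragments of the library), so levels can be compared between genes per length, and sequencing depth is unknown. Tests used limma on log2(FPKM + 1), in 1 fit over the 4 arms, with Benjamini-Hochberg adjustment over the 13545 genes that reached 1 FPKM in at least 4 of the 16 tumours. A gene is called here where its adjusted p was below 0.05. All 10 endothelial genes passed that filter, but Tek reached 1 FPKM only in the 4 combination tumours, and Emcn only in those and 1 RMC-6236 tumour. Genes that entered through the combination tumours in this way had to be higher there, so they are given as values with no p for that arm, and each count is also given with the filter applied to the other 12 tumours alone (13071 genes tested, a setting chosen after the data were seen). In bulk tissue, fewer cells of a type and less RNA per cell cannot be told apart. The libraries were alike in breadth, with 12386 to 13414 genes at 1 FPKM or more and 9.67% to 12.4% of summed FPKM from mitochondrial genes. As a check of the drugs, Dusp6, a feedback target of RAS signalling, averaged 7 ± 3.4 FPKM in combination tumours, 10.9 ± 5.1 in RMC-6236 tumours, 69.1 ± 8.6 in tazemetostat tumours and 59.8 ± 6.2 in control tumours (SD, n = 4 each). Ezh2 itself averaged 6.04 FPKM in combination tumours, 5.43 in RMC-6236 tumours, 6.57 in tazemetostat tumours and 5.41 in control tumours, and its transcript does not report inhibition of the enzyme.

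The cancer cells carried little of these genes, with 1 exception. In the 12 libraries of cultured KPC cells, 9 of the 10 genes stayed below 1 FPKM in every library, the highest value being 0.653 FPKM of Plvap under tazemetostat. Emcn was listed at 0 in all 12 libraries, Kdr and Cldn5 in 11, and Cdh5 in 10. Flt1 lay between 6.94 and 15.3 FPKM in every culture, so in these tumours it does not mark endothelial cells alone.

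**Figure D1:**
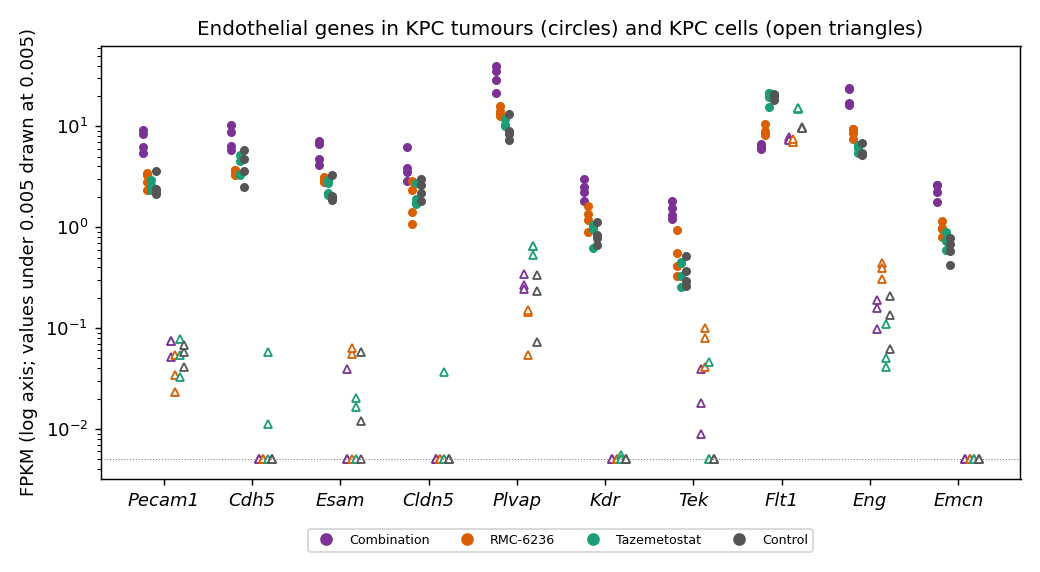
FPKM of the 10 endothelial genes on a log axis in 16 KPC tumours (filled circles) and 12 KPC cell libraries (open triangles), coloured by arm; the 2 tables were processed separately. Flt1 is the gene whose cell libraries, at 6.94 to 15.3 FPKM, reach the range of the tumours.

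With the combination, 9 of the 10 endothelial genes were called higher than with RMC-6236 alone, and Flt1 lower. Over all genes tested, 5.16% were called higher and 2.97% lower in this comparison. With the filter on the other 12 tumours, which leaves out Tek and Emcn, 7 of 8 were higher and Flt1 lower, beside 3.51% and 2.71% of all genes. The 9 differences ran from 0.59 to 1.11 on the log2 scale. The median of the 10 genes was 0.78, against 0 over all genes. Of the 9 that rose, 8 had every combination tumour above every RMC-6236 tumour, and Cldn5 overlapped. The 8 include Tek and Emcn, whose entry through the combination tumours favoured such separation. Flt1 had every combination tumour below. Separation of that kind was seen for 7.9% of all genes upward and 6.76% downward.

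**Figure D2:**
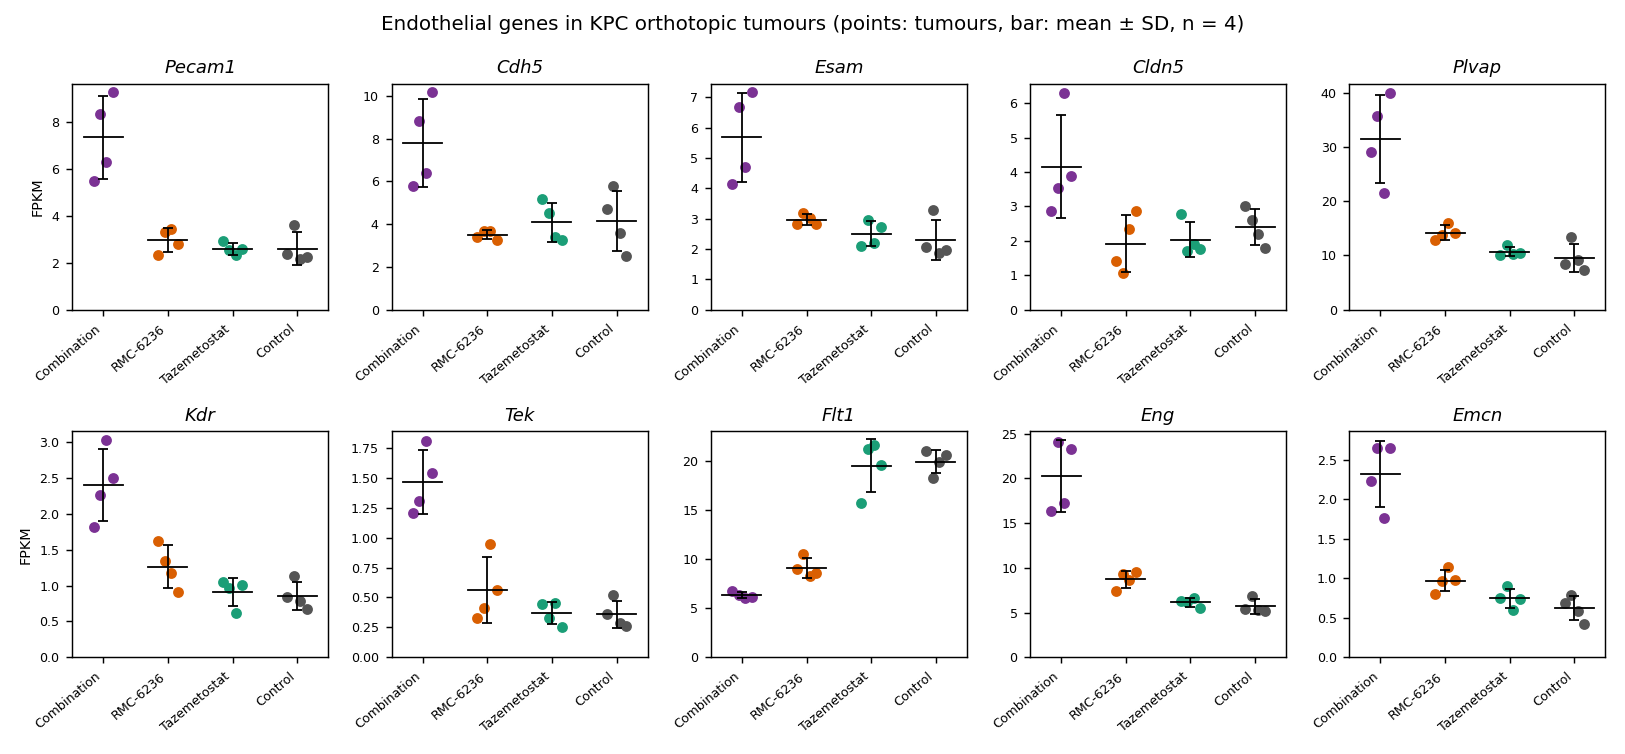
FPKM of each endothelial gene in every KPC tumour by arm, with the mean and SD of 4 tumours. Combination tumours stand above every tumour of the other 3 arms in 7 of the 10 panels, overlap with the control tumours in Cdh5 and Cldn5, and are lowest in Flt1, at 6 to 6.76 FPKM. The 7 include Tek and Emcn, whose entry through the combination tumours favoured such separation. How many of all genes stood above all other arms in this way was not tested.

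Among the junction and adhesion genes, Pecam1, the platelet and endothelial adhesion molecule CD31, had 5.47, 8.34, 6.31 and 9.28 FPKM in combination tumours, against 2.34, 3.32, 3.42 and 2.81 in RMC-6236 tumours. Control tumours had 2.38, 3.63, 2.15 and 2.23 FPKM, and tazemetostat tumours 2.33 to 2.94. The lowest combination tumour was thus above the highest of the 12 others. Pecam1 was higher with the combination than with RMC-6236 by 1.06 ± 0.15 (log2 difference ± SE, limma adjusted p = 0.00053), and higher than control by 1.21 ± 0.15 (adjusted p = 1.1e-05).

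Cdh5 encodes VE-cadherin, the cadherin of endothelial adherens junctions. It had 5.77, 8.83, 6.42 and 10.2 FPKM in combination tumours, against 3.38, 3.68, 3.67 and 3.28 in RMC-6236 tumours, a difference of 0.94 ± 0.19 (limma adjusted p = 0.0077). Control tumours were more spread, with 4.73, 5.78, 3.59 and 2.49 FPKM, and the highest of them just passed the lowest combination tumour. Against control the difference was 0.79 ± 0.19 (limma adjusted p = 0.0035).

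Esam, an adhesion molecule of endothelial tight junctions, had 4.15, 6.69, 4.7 and 7.18 FPKM with the combination and 2.84, 3.18, 3.03 and 2.82 with RMC-6236. The groups did not overlap, and the difference was 0.72 ± 0.15 (limma adjusted p = 0.0076). Cldn5, the claudin of tight junctions at vascular barriers, had 2.87, 3.54, 6.31 and 3.89 FPKM with the combination, against 1.4, 1.07, 2.33 and 2.88 with RMC-6236. It was called higher, by 0.82 ± 0.21 (limma adjusted p = 0.026), although the lowest combination tumour lay just under the highest RMC-6236 tumour. That call was lost when combination replicate 3 or 4, or RMC-6236 replicate 1 or 2, was left out (adjusted p = 0.082, 0.063, 0.077 and 0.072). Against control, Cldn5 was higher by 0.57 ± 0.21 (limma adjusted p = 0.035) and the groups again overlapped. Without combination replicate 3, the tumour at 6.31 FPKM, that difference was 0.39 (adjusted p = 0.12), and it also lost its call without control replicate 3 or 4 or combination replicate 4 (adjusted p = 0.074, 0.098 and 0.057).

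Plvap, which forms the diaphragms of fenestrated capillaries, was the most abundant of the 10 in both arms that received RMC-6236. It had 29, 35.6, 21.4 and 40 FPKM in combination tumours, against 12.8, 13.7, 16 and 14.1 in RMC-6236 tumours and 8.46, 13.3, 9.08 and 7.33 in control tumours. The difference of the combination from RMC-6236 was 1.07 ± 0.17 (limma adjusted p = 0.0016), and that from control 1.62 ± 0.17 (adjusted p = 3.2e-06). Each combination tumour exceeded every tumour of the other arms.

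Both surface glycoproteins rose. Eng encodes endoglin, a co-receptor for BMP9 and TGF-beta on endothelial cells. It had 16.3, 24.1, 17.2 and 23.3 FPKM with the combination, 7.42, 9.33, 8.61 and 9.48 with RMC-6236, and 5.39, 6.89, 5.27 and 5.21 in control. The combination exceeded RMC-6236 by 1.11 ± 0.12 (limma adjusted p = 8.4e-05). The 3 arms did not overlap, and RMC-6236 alone was above control by 0.54 ± 0.12 (limma adjusted p = 0.0028).

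Emcn, a mucin-like protein of venous and capillary endothelium, had 2.24, 2.65, 1.77 and 2.65 FPKM with the combination, 0.804, 0.969, 1.14 and 0.978 with RMC-6236, and 0.684, 0.784, 0.582 and 0.427 in control. The combination differed from RMC-6236 by 0.75 ± 0.10, for a gene that entered through the combination tumours. RMC-6236 exceeded control by 0.29 ± 0.10 (limma adjusted p = 0.036) with groups that did not overlap.

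The receptors split. Kdr, the main signalling receptor for VEGF, had 1.82, 2.26, 3.03 and 2.5 FPKM with the combination, against 1.62, 1.34, 1.18 and 0.904 with RMC-6236 and 0.84, 1.13, 0.79 and 0.671 in control. It was higher with the combination than with RMC-6236 by 0.59 ± 0.13 (limma adjusted p = 0.0091). Tek, the angiopoietin receptor, had 1.21, 1.31, 1.81 and 1.54 FPKM with the combination, against 0.326, 0.413, 0.946 and 0.56 with RMC-6236, a difference of 0.67 ± 0.12 for a gene below 1 FPKM in all 12 other tumours. Both genes were low, and the added pseudocount of 1 understates the change of such genes. With a pseudocount of 0.1 all 9 genes were still called higher than with RMC-6236, by 0.88 to 1.32, beside 561 of all 13545 genes. Tek and Emcn are among the 9, and their entry through the combination tumours favoured a higher value there. The order of the differences depends on that choice, with Eng (1.11) at the top for a pseudocount of 1 and Tek (1.32) for 0.1, where Eng had 1.19. As ratios of arm means, Tek was 2.62-fold, Pecam1 2.47-fold, Emcn 2.39-fold and Eng 2.32-fold higher with the combination than with RMC-6236.

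Flt1, the high-affinity receptor for VEGF and PlGF that also exists as a soluble decoy, went the other way. It had 6.76, 6.33, 6 and 6.18 FPKM in combination tumours, 9.05, 10.5, 8.27 and 8.56 in RMC-6236 tumours, 15.7, 21.2, 21.6 and 19.6 in tazemetostat tumours and 21, 18.3, 19.9 and 20.6 in control tumours. The tumours of both RMC-6236 arms lay below those of the other arms, and combination tumours lay below RMC-6236 tumours. The difference was -1.05 ± 0.09 for RMC-6236 against control (limma adjusted p = 1.7e-06), -1.52 ± 0.09 for the combination against control (adjusted p = 2.4e-08) and -0.46 ± 0.09 for the combination against RMC-6236 (adjusted p = 0.0052).

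In cultured KPC cells Flt1 had 7.44, 7.77 and 7.36 FPKM with the combination, 7, 6.94 and 7.52 with RMC-6236, 15, 15.3 and 15.2 with tazemetostat and 9.54, 9.78 and 9.7 with DMSO. The arms with RMC-6236 were again the low ones. There the log2 difference from DMSO was -0.39 with RMC-6236 (limma adjusted p = 5.6e-07) and -0.32 with the combination (adjusted p = 2.65e-06). With tazemetostat it was 0.60 (adjusted p = 6.87e-08), whereas tazemetostat tumours differed from control tumours by -0.04 ± 0.09 (adjusted p = 0.94). The combination differed from RMC-6236 by 0.06 in cells (adjusted p = 0.165). A call was common in cultured cells, where 73.7% of genes tested were called for RMC-6236, 44.1% for tazemetostat and 76.4% for the combination against DMSO, and 48.8% for the combination against RMC-6236.

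RefSeq promoters of build GRCm38.p6 were at hand for 6 of the 10 genes. The 250 bases before the start of Eng, whose difference from RMC-6236 was the largest on the log2(FPKM + 1) scale, and of Flt1, the gene that fell, are shown with the letters AGGAAG on either strand in capitals. This is a core recognised by ETS factors, the family of the endothelial regulators ERG and FLI1. In Flt1 the palindrome TGACGTCA, the element bound by CREB, is also in capitals. The 2 motifs do not overlap there.
Eng, chr2:32646345-32646594, plus strand: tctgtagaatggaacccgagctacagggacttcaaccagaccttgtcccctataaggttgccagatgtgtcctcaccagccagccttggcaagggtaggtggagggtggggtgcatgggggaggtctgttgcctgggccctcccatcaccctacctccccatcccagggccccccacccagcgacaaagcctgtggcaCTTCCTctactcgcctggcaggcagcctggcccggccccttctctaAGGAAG
Flt1, chr5:147726012-147726261, minus strand: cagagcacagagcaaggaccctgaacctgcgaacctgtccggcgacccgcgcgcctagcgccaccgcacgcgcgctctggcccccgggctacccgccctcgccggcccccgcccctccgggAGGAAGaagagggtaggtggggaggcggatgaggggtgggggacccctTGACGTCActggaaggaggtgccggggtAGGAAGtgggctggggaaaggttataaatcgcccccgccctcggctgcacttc
Each of these windows holds 2 copies of AGGAAG, and so does that of Emcn. The windows of Tek, Kdr and Cldn5 hold none. Among 32851 promoter windows of that length, 29.5% hold AGGAAG and 1.55% hold TGACGTCA. AGGAAG thus occurred in windows of genes that rose and of the gene that fell, while TGACGTCA occurred in that of Flt1 and in none of the other 5.

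RMC-6236 alone changed 4 of the 10 genes against control. Eng, Plvap and Emcn were higher and Flt1 lower, where 20.3% of all genes were called higher and 19.2% lower, so the share of the 10 genes that rose was near the background. Eng and Emcn separated fully upward and Flt1 downward, which 17.7% and 19.2% of all genes did. Plvap was higher by 0.55 ± 0.17 (limma adjusted p = 0.021), but its call was lost without control replicate 1, control replicate 4 or RMC-6236 replicate 3 (adjusted p = 0.057, 0.067 and 0.06). Emcn lost its call when any 1 of 6 tumours was left out (control replicates 1, 3 and 4 and RMC-6236 replicates 2, 3 and 4), at differences of 0.23 to 0.31. Pecam1 differed by 0.15 ± 0.15 (adjusted p = 0.44), Esam by 0.29 ± 0.15 (0.14), Kdr by 0.28 ± 0.13 (0.089) and Tek by 0.19 ± 0.12 (0.22). Cdh5 and Cldn5 differed by -0.15 ± 0.19 and -0.25 ± 0.21 (adjusted p = 0.57 and 0.37).

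Tazemetostat alone gave no call among the 10 genes, nor among all 13545, for which 0% were called. At an unadjusted p below 0.05, limma listed 1023 of all genes and 0 of the 10. The 10 differences from control ran from -0.17 ± 0.21 for Cldn5 to 0.17 ± 0.17 for Plvap.

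Against control, the combination had 9 of the 10 genes higher and Flt1 lower, beside 26.7% and 25.7% of all genes. The differences of the 9 ran from 0.57 to 1.65, and without Tek and Emcn 7 of 8 genes were higher and Flt1 lower. Cdh5 and Cldn5 overlapped control, and the other 7 did not, against 23.8% of all genes with every combination tumour higher. The 7 include Tek and Emcn, whose entry through the combination tumours favoured such separation. Flt1 separated downward, like 23.7% of all genes. Against tazemetostat the same counts were 9 and 1, beside 24.7% and 26.3% of all genes. With the filter on the other 12 tumours they were 7 and 1 of 8 genes, beside 22.9% and 27.1% of all genes. Under the main filter all 9 separated fully upward and Flt1 downward against tazemetostat, which 22.3% and 22.6% of all genes did. Tek and Emcn are again among the 9. Whether the combination exceeded the sum of the log2(FPKM + 1) differences of both drugs from control was tested as an interaction. It was called, upward, for Eng (1.02 ± 0.17, limma adjusted p = 0.0071), Pecam1 (1.04 ± 0.21, adjusted p = 0.021) and Emcn (0.64 ± 0.14), which entered through the combination tumours. Over all genes, 1.49% were called higher. With the filter on the other 12 tumours, 2 of 8 genes were called, beside 0.49% of all genes. Pecam1 lost the call without combination replicate 2 or 4 (adjusted p = 0.056 and 0.052), and Emcn when any 1 of 12 tumours was left out (differences of 0.59 to 0.65). The other 6 rising genes had interactions between 0.55 and 0.99 that were not called. These comparisons share the combination, RMC-6236 and control tumours, so they are not independent of each other.

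**Figure D3:**
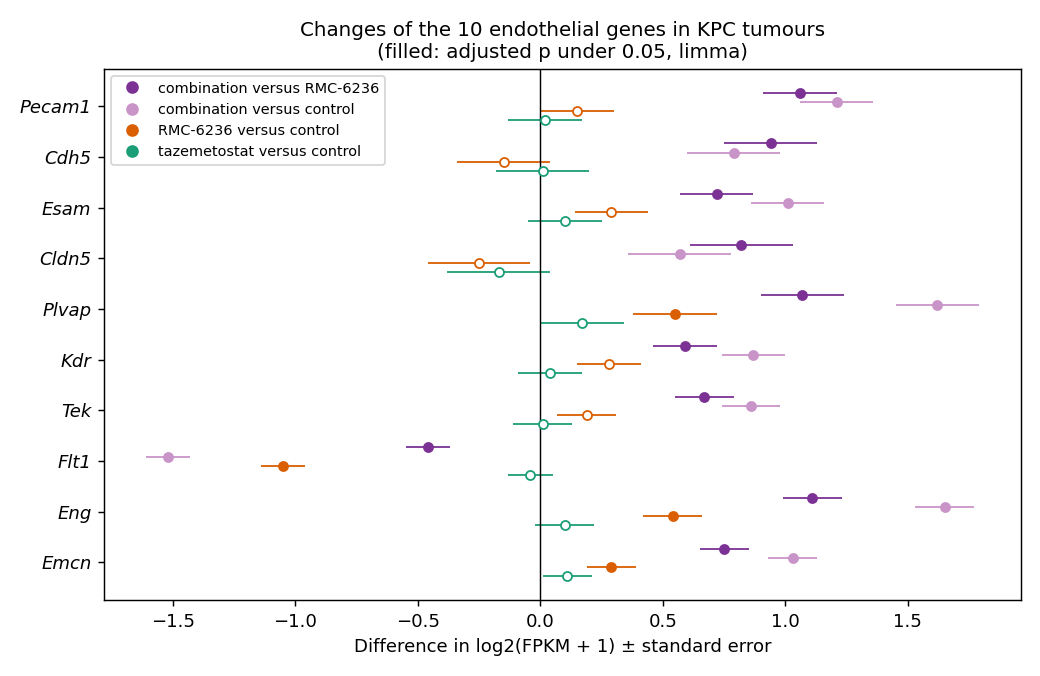
Log2(FPKM + 1) differences of the 10 endothelial genes, with standard errors from limma, for 4 comparisons of KPC tumours; filled points had an adjusted p below 0.05. The combination lies right of RMC-6236 and of control for 9 genes, at 0.57 to 1.65, and left of them for Flt1, while tazemetostat against control stays within 0.17 of 0.

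The order of levels among the genes also changed with treatment. In control tumours Flt1 led at 19.9 ± 1.2 FPKM, followed by Plvap at 9.55 ± 2.6, Eng at 5.69 ± 0.81 and Cdh5 at 4.15 ± 1.4 (SD, n = 4). From Eng down to Esam, through Cdh5, Pecam1 and Cldn5, neighbours in that order overlapped, and Kdr, Emcn and Tek were lowest, at 0.857, 0.619 and 0.358 FPKM. In combination tumours Plvap led at 31.5 ± 8.1 FPKM and Eng followed at 20.2 ± 4, overlapping it. Cdh5 (7.8), Pecam1 (7.35), Flt1 (6.32), Esam (5.68) and Cldn5 (4.15 FPKM) came next and overlapped as neighbours.

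Levels were also set against Pecam1 in the same tumour, as a description with no test. Flt1 per Pecam1 was 0.904 ± 0.25 in combination tumours, 3.12 ± 0.59 in RMC-6236 tumours, 7.63 ± 1.7 in tazemetostat tumours and 8.09 ± 2 in control tumours (SD, n = 4 each). Plvap per Pecam1 was 4.32 ± 0.78 with the combination, 4.82 ± 0.56 with RMC-6236 and 3.69 ± 0.4 in control. Flt1 was above Pecam1 in all 12 tumours of the other arms but in 1 of the 4 combination tumours (replicate 1, at 1.24), and Plvap was above Pecam1 in all 16. Eng per Pecam1 was 2.78 ± 0.21 with the combination, 2.97 ± 0.38 with RMC-6236 and 2.24 ± 0.24 in control. Esam per Pecam1 was 0.77 ± 0.025 with the combination and 0.879 ± 0.019 in control, without overlap. Cdh5 per Pecam1 was 1.06 ± 0.033 with the combination, 1.2 ± 0.17 with RMC-6236 and 1.59 ± 0.36 in control. The combination (1.02 to 1.1) overlapped RMC-6236 (1.07 to 1.45) and lay just below control (1.12 to 1.99).

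Within arms, after the mean of each arm was taken off, the 10 genes did not vary as one block over the 16 tumours. Pearson's r, as a description, was 0.89 between Plvap and Emcn, 0.84 between Pecam1 and Eng and 0.79 between Pecam1 and Cdh5. Tek and Cldn5 went together (0.72) and were nearly unrelated to Plvap (0.20 and -0.13). The mean r with the other 9 genes was 0.5 for Pecam1, 0.13 for Kdr, 0.05 for Cldn5 and -0.3 for Flt1. Ranked by mean r with the 10 genes, the most alike of all other genes at 2 FPKM or more were Dcp2, Magt1, Tie1, Trp53i11, Rnf20, Lman2l, Rpusd4, Sox18, Ubqln1 and Notch1. Their mean r lay between 0.52 and 0.542, over the same 16 libraries for every gene.

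Of 8 ligands of these receptors, 1 was called between combination and RMC-6236, and 0 of 7 with the filter on the other 12 tumours. The 1 was Angpt4, an angiopoietin that binds TEK. It had 3.63, 5.68, 3.07 and 4.16 FPKM with the combination, 1.62, 0.977, 1.14 and 1.1 with RMC-6236 and 0.0682 to 0.365 in control. Its difference was 1.20 ± 0.14 from RMC-6236 and 2.05 ± 0.14 from control, and it passed the filter through combination tumours, all of which lay above the others. KPC cells listed it at 0 in all 12 libraries.

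Vegfa, the main growth factor for endothelium, had 74.1, 77.5, 45.2 and 53.9 FPKM with the combination, 90, 151, 70.6 and 82.5 with RMC-6236, 128 to 183 with tazemetostat and 107 to 131 in control. It was lower with the combination than in control, with a difference of -0.93 ± 0.21 (limma adjusted p = 0.002), without overlap. Against RMC-6236 the difference was -0.62 ± 0.21 (adjusted p = 0.088). In KPC cells Vegfa had 71 to 75.2 FPKM with the combination and 50.1 to 53 with DMSO, a log2 difference of 0.50 (limma adjusted p = 1.72e-08), opposite in sign to the tumours.

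Angpt1, the ligand that activates TEK, rose with RMC-6236 against control, by 0.95 ± 0.14 (limma adjusted p = 0.00016), and averaged 21.6 FPKM with the combination, 24.1 with RMC-6236 and 12 in control. Vegfd rose with RMC-6236 by 0.64 ± 0.18 (adjusted p = 0.012), and Vegfb fell by 0.25 (adjusted p = 0.03). Angpt2, which antagonises ANGPT1 in many settings, had 2.25, 7.89, 1.94 and 6.9 FPKM with the combination and 1.12 to 2.48 with RMC-6236 (0.81 ± 0.31, adjusted p = 0.13). Vegfc and Pgf were not called in either comparison.

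**Figure D4:**
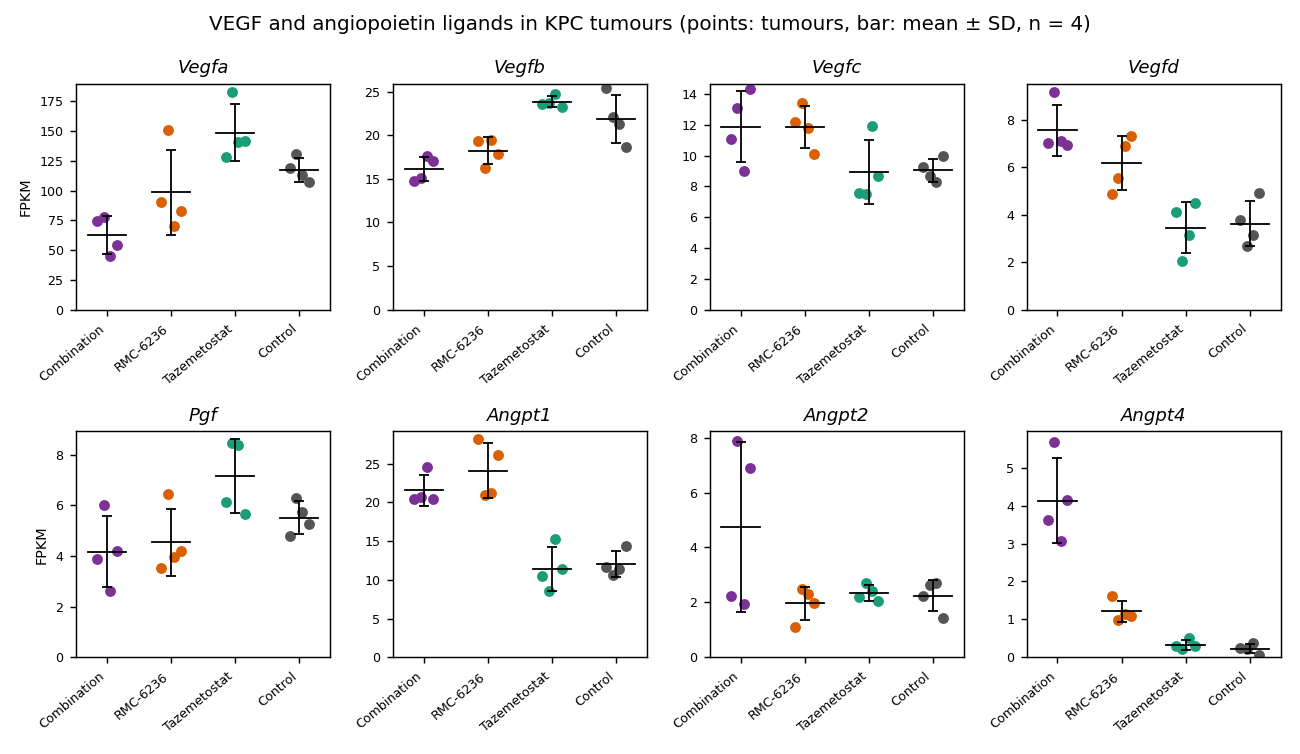
FPKM of 8 VEGF and angiopoietin ligands in every KPC tumour by arm, with the mean and SD of 4 tumours. Angpt4 is highest in combination tumours, at 3.07 to 5.68 FPKM, and Vegfa is lower there than in tazemetostat and control tumours.

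Of 16 tested pan-endothelial genes outside the 10, 12 were higher with the combination than with RMC-6236 and 0 lower. The shares of all genes were 5.16% and 2.97%. With the filter on the other 12 tumours the count was 7 of 10, beside 3.51% of all genes. In KPC cells, 5 of the 18 genes listed averaged 1 FPKM or more. Robo4, a guidance receptor of endothelium, averaged 4.1 ± 1.7 FPKM with the combination and 1.54 ± 0.077 with RMC-6236 (SD, n = 4 each). Its difference was 0.95 ± 0.17 (limma adjusted p = 0.0036). Egfl7, a secreted protein of endothelium, differed by 0.93, and KPC cells had 1.44 to 3.75 FPKM of it. Mmrn2 and Exoc3l2, which entered through the combination tumours, differed by 0.91 and 0.78. With RMC-6236 alone, 7 of the 16 were above control, beside 20.3% of all genes. They were led by Cd34 (1.12 ± 0.20, limma adjusted p = 0.00061), which fibroblasts and progenitors also express.

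Among 11 tested vascular receptors, 6 were higher with the combination than with RMC-6236 and 1 lower, beside 5.16% and 2.97% of all genes. All 11 passed the filter on the other 12 tumours. Of the 12 listed, 5 averaged 1 FPKM or more in KPC cells. Acvrl1, the partner of endoglin in BMP9 signalling, averaged 5.79 ± 0.53 FPKM with the combination, 2.91 ± 0.27 with RMC-6236 and 1.49 ± 0.29 in control (SD, n = 4 each). Its difference from RMC-6236 was 0.79 ± 0.10 (limma adjusted p = 0.00026). Calcrl, a receptor for adrenomedullin, differed by 0.84, Aplnr, the apelin receptor, by 0.73 and Tie1, the partner of TEK, by 0.71. Unc5b, a netrin receptor that KPC cells had at 11.4 to 27.5 FPKM, fell like Flt1, averaging 16.9 ± 2.9 FPKM with the combination, 25.2 ± 3.8 with RMC-6236 and 48.4 ± 1.9 in control. Its difference was -0.56 ± 0.12 from RMC-6236 (limma adjusted p = 0.0091).

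Of 10 tested endothelial transcription factors, 6 were higher with the combination than with RMC-6236 and 0 lower, beside 5.16% and 2.97% of all genes. With the filter on the other 12 tumours 4 of 8 were higher, beside 3.51% of all genes. Sox18, a SOX-F factor of endothelial fate, differed by 0.88 ± 0.20 (limma adjusted p = 0.013). Its relative Sox17 and the ETS factor Erg, which entered through the combination tumours, differed by 0.73 ± 0.12 and 0.63 ± 0.13. Epas1, the hypoxia-inducible factor HIF-2 alpha, fell with RMC-6236 alone and was higher with the combination than with RMC-6236, by 0.53 ± 0.10 (adjusted p = 0.0051). KPC cells had 4.26 to 10.4 FPKM of Epas1, a range that holds the tumour means of 5.75 with RMC-6236 and 8.68 with the combination. Notch and tip cell genes changed with RMC-6236 alone, 5 of 10 lower and 1 higher than in control, beside 19.2% and 20.3% of all genes. The Notch ligands Dll4 and Jag1 and the Notch target Nrarp fell by 0.75, 0.78 and 1.18, and Cxcr4 was higher by 1.20. With the combination, 3 of the 10 were lower and 2 higher than in control, beside 25.7% and 26.7% of all genes. Between the combination and RMC-6236, Nid2 was the 1 gene of that list called. These genes are not all endothelial, since 5 of the 12 listed averaged 1 FPKM or more in KPC cells.

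Of 7 tested genes of arteries, veins and capillaries, 3 were called higher with the combination than with RMC-6236, beside 5.16% of all genes. With the filter on the other 12 tumours it was 2 of 6, beside 3.51% of all genes. The 2 were the arterial connexin gene Gja4 (0.59 ± 0.13, limma adjusted p = 0.011) and the venous factor Nr2f2 (0.42 ± 0.08, 0.0042). Ackr1, a chemokine receptor of venules that entered through the combination tumours, differed by 0.73 ± 0.18 and was not called with a pseudocount of 0.1 (adjusted p = 0.17). Of 4 tested leukocyte adhesion genes, Cd200 and Icam1 rose, by 0.90 ± 0.14 and 0.87 ± 0.15 (adjusted p = 0.00092 and 0.0021). Of 3 tested lymphatic genes, Pdpn rose (0.91 ± 0.22, adjusted p = 0.018), a gene fibroblasts also express. Of 6 caveolar genes, Cavin1 fell, by 0.31 (adjusted p = 0.0057), and all 6 averaged 1 FPKM or more in KPC cells.

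Mural cells wrap capillaries, and 5 of 9 tested pericyte and mural genes were higher with the combination than with RMC-6236, with 0 lower. The shares of all genes were 5.16% and 2.97%. With the filter on the other 12 tumours 4 of 8 were higher, beside 3.51% of all genes. Rgs5, a pericyte regulator of G-protein signalling, averaged 15.3 ± 8.2 FPKM with the combination and 5.52 ± 1.1 with RMC-6236 (SD, n = 4 each; 1.20 ± 0.28, limma adjusted p = 0.016). The potassium channel gene Kcnj8 differed by 1.13 ± 0.21 (adjusted p = 0.0041), and that of its partner Abcc9, which entered through the combination tumours, by 1.10 ± 0.17. Of 10 vascular basement membrane genes, Col15a1, Lama4 and Nid2 rose, by 1.11, 0.97 and 0.82. Col18a1, the source of endostatin, fell by 0.77 (adjusted p = 6e-04), at 80.2 ± 14 FPKM with the combination and 137 ± 14 with RMC-6236. Of 10 hypoxia response genes, 0 were called by limma between the combination and RMC-6236, and 6 were lower at an unadjusted p below 0.05. In that comparison 3010 of all 13545 genes had an unadjusted p below 0.05, in either direction. Against control 5 fell, beside 25.7% of all genes. Among the 5 were the glucose transporter gene Slc2a1 by 1.51, adrenomedullin (Adm) by 1.16 and the oxygen sensor gene Egln3 by 1.15. Of these 10 genes, 9 averaged 1 FPKM or more in KPC cells, with Egln3 at 71.2 to 154 and Slc2a1 at 55.4 to 67.9 FPKM.

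Markers of other cells moved with the combination as well. The summed FPKM of 12 acinar markers, enzymes of normal exocrine pancreas, was 670, 1220, 94.6 and 3300 in combination tumours, 22.4, 5.28, 97.5 and 57 in RMC-6236 tumours, 6.89 to 331 in tazemetostat tumours and 12.3 to 44.7 in control tumours. Of these 12 markers, 10 were called higher than with RMC-6236, beside 5.16% of all genes. With the filter on the other 12 tumours it was 7 of 9, beside 3.51% of all genes. Combination replicate 3, at 94.6 FPKM, lay under RMC-6236 replicate 3, at 97.5. That combination tumour was above all 12 tumours of the other arms in 9 of the 10 endothelial genes. Tek and Emcn are among the 9 and entered through the combination tumours. How many of all genes stood out in this way in that tumour was not tested. The summed FPKM of those 9 genes was 68.9, 93.3, 68.9 and 100 in combination tumours, 32.9, 37, 40.4 and 37.8 in RMC-6236 tumours, and 22.4 to 37.9 in control tumours.

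Combination replicate 3 had most adipocyte marker RNA, 76.2 FPKM summed over 6 genes, against 3.61 to 9.65 in the other combination tumours and 1.99 to 6.83 with RMC-6236. A fit was run with this tumour alone in its arm, chosen after the data were seen and assuming that it varies like the other arms. The 9 rising genes then differed from RMC-6236 by 0.49 to 1.37, among them Cldn5 (1.37), Eng (0.91), Pecam1 (0.89), Tek (0.86) and Kdr (0.84). Tek and Emcn entered through the combination tumours, which favoured a positive difference. Flt1 differed by -0.52. These values rest on 1 tumour, with no spread of its own.

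**Figure D5:**
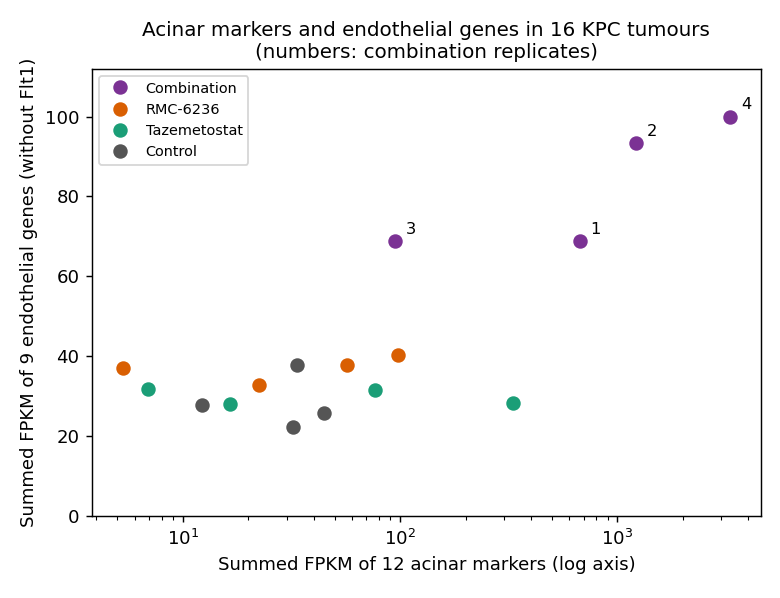
Summed FPKM of 9 endothelial genes (all but Flt1) against summed FPKM of 12 acinar markers, on a log axis, for each of 16 KPC tumours. Combination tumours, at 68.9 to 100 FPKM, stand above all others, including replicate 3, whose acinar sum of 94.6 FPKM lies within the range of the other arms.

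With an acinar score (the mean log2 level of those markers) as a covariate, 3 of the 10 genes, Eng, Emcn and Kdr, stayed called higher with the combination than with RMC-6236. Emcn entered through the combination tumours, and 349 of all 13545 genes were called higher in this fit. The 9 differences were then 0.59 to 0.88. The acinar score was 2.608 to 7.179 in combination tumours, 0.264 to 2.379 in RMC-6236 tumours and 0.623 to 1.425 in control tumours. It did not overlap between the combination and either of these arms, so score and treatment cannot be told apart in these comparisons. The sum of 11 fibroblast markers was 3300 to 3870 FPKM in combination tumours, 3000 to 3930 in RMC-6236 tumours and 824 to 1140 in control tumours. With the combination, 6 of the 11 were called higher than with RMC-6236, beside 5.16% of all genes. With a fibroblast score as a covariate, 2 of the 10 genes, Eng and Emcn, stayed called higher than with RMC-6236 and 0 higher than in control. Of all 13545 genes, 81 and 41 were called higher in these comparisons, and Emcn again entered through the combination tumours. The differences of the 9 genes were then 0.52 to 1.08 and 0.66 to 1.64. The fibroblast score did not overlap between the combination and RMC-6236 arms, nor between either and control, so it and the arms cannot be told apart. Neutrophil markers summed to 39.6 to 205 FPKM with the combination and 16.3 to 25.6 with RMC-6236. Globin and other erythroid genes summed to 69.9 to 177 FPKM with the combination and 12.6 to 46.5 with RMC-6236. Of these, 4 of 4 tested genes were called higher, beside 5.16% of all genes, although near-identical globin copies can share reads. Macrophage markers summed to 1550 to 2120 FPKM with the combination, 1190 to 1700 with RMC-6236 and 510 to 633 in control, and 1 of 12 was called between the first pair. Summed epithelial markers, led by keratins of the cancer cells, were 865 to 1410 FPKM with the combination, 1460 to 2040 with RMC-6236 and 3130 to 3910 in control. The part of these shifts in tissue makeup in the endothelial results was not tested beyond these fits.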

How the data were processed

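Tumour and cell tables held FPKM values per gene, deposited by the authors; per the submitters' processing notes, FastQC 0.11.2, STAR 2.5.3a and StringTie 1.3.1c were used, and the notes name a human build for all samples, so the mouse build is not given in the sources used here. Per the labels' protocols, RNA was extracted with RNAiso Plus and made into stranded mRNA libraries. How strand was used in counting is not given in the sources used here. Of 67 samples, 16 KPC tumours and 12 KPC cell libraries were used; 15 subcutaneous tumours and 24 human cell libraries were not used here.

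limma 3.58.1 in R 4.3.3 was run on log2(FPKM + 1), with trended and robust variance, on genes at 1 FPKM or more in at least 4 of 16 tumours (13545 genes) or 3 of 12 cell libraries (12567 genes); the cell fit was added after the data were seen. The procedure was tested on simulated data. Depth is unknown, so no counting interval is given, and the number of tumours limits the precision. No 2 columns were identical. The 10 genes, the gene lists and the comparisons were chosen with earlier results of these data known. Named from each list were the called genes with the largest change, and all ligands; further genes in the text were chosen after their values were seen. Promoters came from the RefSeq table of build GRCm38.p6. Alternatives varied the pseudocount, filter, scaling, variance model, arms in the fit, covariates and tumours left out.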

Additional observations from a re-analysis of the deposited data

Results flagged for a closer look

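Among 40 groups of 4 tumours, 4 had 1 tumour far from the rest by Dixon's test at the 95% level, which chance alone does in about 1 group in 20. Control replicate 2 was the high tumour for Pecam1, at 3.63 FPKM with the next at 2.38. It was also the high one for Eng, at 6.89 with the next at 5.39, and for Esam, at 3.28 with the next at 2.05. In tazemetostat tumours, Plvap reached 11.9 FPKM in replicate 2 with the next at 10.4.

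The effect of RMC-6236 differed between tumours with and without tazemetostat, by the interaction term of the fit, for Pecam1 (1.04), Eng (1.02) and Emcn (0.64), of which Emcn entered the fit through the combination tumours. The acinar markers were high in 3 of the 4 combination tumours that set these terms. With the acinar score as a covariate, 1 of the 10 genes kept a called interaction, beside 171 of all 13545 genes called higher. That score did not overlap between the combination and RMC-6236 or control arms, so the fit cannot tell it from the treatment there. Pecam1 lost its interaction call without combination replicate 2 or 4. Emcn lost its call in most fits with 1 tumour left out, and with a pseudocount of 0.1.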

How the results depend on the processing

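The 9 genes that were higher with the combination than with RMC-6236 kept that direction under every alternative run, and Flt1 stayed lower. The number called higher was 3 with the acinar score, 2 with the fibroblast score and 5 with combination replicate 3 alone in its arm, and Flt1 was no longer called in these 3 fits (0 lower). The fit with combination replicate 3 alone was chosen after the data were seen and rests on 1 tumour with no spread of its own. A call kept or lost in it therefore cannot be weighed like those of the other fits. Tek, which entered through the combination tumours, is among the genes called in it. Leaving out 1 tumour gave 7 to 9 called, where Tek was not tested when a combination tumour was left out. With the filter on the 12 tumours outside the combination arm, where Tek and Emcn were not tested, 7 were higher and 1 lower. Against control the count was 0 with the fibroblast score and 7 to 9 with 1 tumour left out. Against tazemetostat it was 0 higher and 0 lower with the fibroblast score, and 8 to 9 higher with 1 tumour left out. For RMC-6236 against control the count of higher genes was 1 without a filter on low values, 0 with the fibroblast score, and 1 to 4 with 1 tumour left out. For the interaction it was 1 with the acinar score and 0 with the fibroblast score, and 1 to 4 higher and 0 to 1 lower with 1 tumour left out. The median-ratio scaling gave 9 higher with the combination than with RMC-6236. Over all genes, 699 were higher and 402 lower with the combination than with RMC-6236. These counts were 1352 and 325 without a filter, 349 and 128 with the acinar score, 81 and 57 with the fibroblast score, and 459 and 354 with the filter on the 12 other tumours. For the interaction they were 202 and 50 as reported, 71 and 25 with a pseudocount of 0.1 and 64 and 23 with that filter.

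With the fibroblast score as a covariate, differences changed sign for Cavin1 with RMC-6236 against control (0.01), for Vegfd (-0.07), Adm (0), Lum (-0.5) and Cd34 (-0.33) with the combination against control, and for Vegfc (-0.01) and Vegfd (-0.06) with the combination against tazemetostat. The cause was not tested.

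Replicate numbers in the labels did not pair the tumours, since 4 of 16 tumours were most like a tumour of their own number. With a replicate block, 9 genes were higher and 1 lower with the combination than with RMC-6236, 9 and 1 against control, 3 higher with RMC-6236 against control, and 2 higher in the interaction. FPKM tables hold no counts, so depth could not be weighed, and 4 tumours per arm limit what could be called.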

Other observations

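Of 8 listed neutrophil markers 7 were tested, and all 7 were called higher with the combination than with RMC-6236, beside 5.16% of all genes. With the filter on the 12 tumours outside the combination arm it was 4 of 4, beside 3.51% of all genes. Cxcr2, Mmp8 and Retnlg entered through the combination tumours. KPC cells had 4.79 to 14.9 FPKM of Ly6g, which is also on the list. Retnlg, a secreted protein of mature neutrophils, averaged 6.87 ± 5.3 FPKM with the combination and 0.347 ± 0.27 with RMC-6236 (SD, n = 4 each). Its log2 difference was 2.26 ± 0.43, for a gene that passed the filter through the combination tumours. The alarmin subunit gene S100a9 differed by 2.25 ± 0.58 (limma adjusted p = 0.029), and averaged 49.8 ± 38 FPKM with the combination and 7.71 ± 2.5 with RMC-6236.

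Of 4 tested platelet genes, Pf4, which macrophages also express, was higher with the combination than with RMC-6236 (0.93 ± 0.24, limma adjusted p = 0.026). Itgb3, an integrin chain shared by platelets and endothelium, was lower, with a difference of -0.40 ± 0.12 (limma adjusted p = 0.049), but was not called with the filter on the 12 other tumours (adjusted p = 0.058). Islet markers summed to 0.381 to 755 FPKM in combination tumours and 0.105 to 86.4 FPKM in RMC-6236 tumours, with 1 combination tumour (replicate 3) near 0, and limma called 0 of 7 tested islet genes, with 0 at an unadjusted p below 0.05.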
